A study of Mus musculus with 34 samples.

Results

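The urea cycle and ammonia genes described here are Cps1, Otc, Ass1, Asl, Arg1, Nags, Slc25a15, Slc25a13, Gls2 and Glul, 10 genes listed by name for their role in the pathway. All 10 were found among the 37583 genes of the mRNA table and among the 19583 rows of the nascent RNA table. The tissue was liver of F1 mice (C57Bl6/CBA) at 45 days of age, kept on a standard chow diet. In KO animals (Setd8lox/lox-Alb-Cre), exon 7 of Setd8 was floxed and Cre was driven by the Alb promoter, and WT animals are labelled wild type, with no word on floxed alleles. Setd8, also called Kmt5a or PR-Set7, encodes the enzyme that adds a single methyl group to lysine 20 of histone H4. Alb-Cre is active in hepatocytes, and cells of the organ in which it is not active keep the intact gene.

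Steady-state polyadenylated RNA was sequenced in 3 KO and 3 WT libraries. Nascent RNA was sequenced by 2 methods with 1 KO and 1 WT library each. In the EU method, mice received 25 mg per kg of ethynyl uridine by intraperitoneal injection 30 min before death, and labelled RNA was recovered. In the Br method, isolated nuclei extended their engaged transcripts for 3 min with a bromouridine nucleotide. The other 24 samples of the series, of 34 in all, are chromatin samples and were not analysed here. The labels do not say whether each library is a separate animal, so the spread behind each p-value is that of the libraries as deposited and could be partly technical.

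The urea cycle turns ammonia released by amino acid breakdown into urea, and the liver is the organ that runs it in full. Periportal hepatocytes, which receive blood from the gut first, hold glutaminase and the cycle enzymes. A thin layer of hepatocytes around the central vein instead holds glutamine synthetase, which captures the ammonia that passes the cycle. Nags makes N-acetylglutamate, the obligatory activator of the mitochondrial enzyme Cps1, which commits ammonia to the cycle as carbamoyl phosphate. Otc joins carbamoyl phosphate to ornithine, Ass1 and Asl carry citrulline to arginine in the cytosol, and Arg1 splits arginine into urea and ornithine. Slc25a15 exchanges ornithine and citrulline across the inner mitochondrial membrane, and Slc25a13 (citrin) exports the aspartate that Ass1 uses.

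Scaled sums were between 18069344 and 20102731 in KO and between 20066093 and 25820906 in WT, with 15640553 to 27110816 reads per library as re-estimated from the rounding of the values. WT replicate 3 stood apart from the rest, with a score of 121 on the leading principal component (43.9% of the variance) against scores from -46.2 to -6.11 in the other libraries. It also had 20077 genes above 0, against 24497 to 26247 in the others. Setd8 (listed as Kmt5a) was not lower in the libraries labelled KO. It had scaled values of 1199, 1040 and 1075 in KO and 593, 615 and 1076 in WT, a log2 difference of 0.59 (95% interval 0.0065 to 1.17, limma adjusted p = 0.244). Without WT replicate 3, whose value lay among those of KO, the difference was 0.87 and Kmt5a was called higher in KO (limma adjusted p = 0.0206). That fit called 1606 genes in all, against 455 with every library in. In nascent RNA, where the KO libraries were the shallower, Kmt5a had 310 EU reads in the library labelled KO and 473 in WT, a centred log2 ratio of KO over WT of 0.41 (95% counting interval 0.21 to 0.63). It had 92 Br reads in KO and 104 in WT, a ratio of 0.26 (-0.15 to 0.69). The floxed exon cannot be isolated in whole-gene counts. The labels KO and WT are used throughout on this footing. The hepatocyte markers were abundant, with summed scaled values of 2244659 to 2563512 in KO and 2184082 to 3613156 in WT.

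Promoter sequence was available for 6 of the 10 genes in the RefSeq table for GRCm38.p6 (Ass1, Glul, Nags, Otc, Slc25a13 and Slc25a15). It is shown for a pair of genes whose nascent RNA was more than 1.5-fold lower in KO by both methods, Nags and Slc25a15, and for a pair that was not, Otc and Glul. Each line gives the 250 bases before the listed start, 5′ to 3′ on the gene's own strand. Capitals mark GGGCGG or its reverse complement (the core letters of a GC box) and CCAAT (the core letters of a CCAAT box). The windows are chr11:102145263-102145512 on the plus strand for Nags, chr8:22398622-22398871 on the minus strand for Slc25a15, chrX:10252055-10252304 on the plus strand for Otc and chr1:153899679-153899928 on the plus strand for Glul.
Nags: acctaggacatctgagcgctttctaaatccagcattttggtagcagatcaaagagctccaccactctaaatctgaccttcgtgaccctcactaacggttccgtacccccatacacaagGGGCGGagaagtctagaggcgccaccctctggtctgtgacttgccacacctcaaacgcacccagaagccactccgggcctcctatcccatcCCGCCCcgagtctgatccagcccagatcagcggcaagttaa
Slc25a15: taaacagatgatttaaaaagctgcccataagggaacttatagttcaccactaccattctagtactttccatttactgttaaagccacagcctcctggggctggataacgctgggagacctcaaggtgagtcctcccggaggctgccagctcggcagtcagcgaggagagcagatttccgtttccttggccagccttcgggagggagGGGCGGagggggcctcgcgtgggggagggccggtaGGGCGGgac
Otc: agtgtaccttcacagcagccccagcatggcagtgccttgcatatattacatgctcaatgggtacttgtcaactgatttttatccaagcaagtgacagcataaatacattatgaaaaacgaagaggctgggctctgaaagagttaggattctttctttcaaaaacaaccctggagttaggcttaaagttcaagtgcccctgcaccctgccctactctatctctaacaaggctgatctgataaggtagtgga
Glul: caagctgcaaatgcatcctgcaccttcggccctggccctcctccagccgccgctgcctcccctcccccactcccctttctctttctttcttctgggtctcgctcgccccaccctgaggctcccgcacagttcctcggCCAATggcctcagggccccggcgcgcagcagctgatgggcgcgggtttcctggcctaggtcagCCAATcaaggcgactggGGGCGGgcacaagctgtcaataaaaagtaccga

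The Nags window held 2 GC box cores and 55.6% G and C, and the Slc25a15 window held 2 GC box cores and 57.6%. A second listed start of Slc25a15, not shown, had a window with 5 GC box cores. The Otc window held none of the letters searched and 43.6% G and C. The Glul window held 2 CCAAT cores, 1 GC box core and 64.8% G and C. Over all 32851 listed promoter windows, searched on both strands, GGGCGG was present in 32.7% and CCAAT in 33.8%. TATAAA was present in 12.4%, CACGTG in 6.02%, TTGCGCAA in 0.164% and CAAAGTCCA in 0.384% of windows, and no window of the 4 shown held any of these. Among the windows not shown, CACGTG was present in those of Ass1, Slc25a13 and the second listed start of Slc25a15. A match is a match of letters only, and windows of unlike nascent readout shared the GC box core here.

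The first comparison asked how steady-state mRNA of the 10 genes differed between KO and WT liver. None of the 10 changed by the limma test over all 16813 genes tested (adjusted p under 0.05), where 2.71% of genes were called, 1.35% higher and 1.36% lower. All 10 passed the filter on low values. Slc25a15 alone among the 10 had an unadjusted p under 0.05, which 20% of all genes tested had. For none of the 10 did the KO libraries lie wholly outside the range of the WT libraries, which was so for 26% of all genes. The median log2 difference of the 10 was 0.073, with 6 above 0, against 0.0023 for all genes tested. On re-estimated reads, edgeR with RLE scaling called 2.81% of all genes and DESeq2 10.8%, and both called 0 of the 10.

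Cps1 (chromosome 1, ENSMUSG00000025991), the entry enzyme of the cycle, had scaled values of 50292, 46637 and 77915 in KO replicates 1 to 3 and 43909, 53289 and 40398 in WT. KO replicate 3 was the highest of the 6 libraries and the other 2 KO libraries lay within the WT range. The means were 58281 ± 17101 in KO and 45865 ± 6664 in WT (SD, n = 3 each). The log2 difference, here and below fitted on the scaled value plus 1 as KO over WT, was 0.32 (95% interval -0.29 to 0.93, limma adjusted p = 0.564). Nags (chromosome 11, ENSMUSG00000048217), which makes the activator of Cps1, had 1794, 1586 and 1610 in KO and 1423, 1448 and 1677 in WT. Its groups overlapped through WT replicate 3, and all 6 libraries lay close together. Its log2 difference was 0.14 (-0.26 to 0.53, limma adjusted p = 0.723).

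Otc (chromosome X, ENSMUSG00000031173), the mitochondrial enzyme that makes citrulline, had 3557, 5920 and 7973 in KO and 4213, 4361 and 9614 in WT. Replicate 3 was high in both groups and the ranges lay over each other, with a log2 difference of -0.024 (-0.94 to 0.89, limma adjusted p = 0.985). Ass1 (chromosome 2, ENSMUSG00000076441), which joins citrulline to aspartate, had 14565, 14079 and 30593 in KO and 12577, 20552 and 10726 in WT. Asl (chromosome 5, ENSMUSG00000025533), which releases arginine from the product of Ass1, had 7574, 8376 and 18008 in KO and 8007, 11175 and 6784 in WT. In both genes KO replicate 3 was the highest library, WT replicate 3 the lowest, and the other KO libraries fell inside the WT range. The log2 difference was 0.39 for Ass1 (-0.46 to 1.24) and 0.30 for Asl (-0.52 to 1.13), with limma adjusted p of 0.614 and 0.703.

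Arg1 (chromosome 10, ENSMUSG00000019987), which forms urea, had 23603, 24539 and 48955 in KO and 30136, 31531 and 46799 in WT. KO replicates 1 and 2 lay below every WT library, and KO replicate 3 lay above every WT library. The log2 difference was -0.22 (-0.99 to 0.56, limma adjusted p = 0.778), and -0.56 without KO replicate 3. Gls2 (chromosome 10, ENSMUSG00000044005), the liver glutaminase that frees ammonia from glutamine in periportal cells, showed the same layout, with 2270, 3041 and 7306 in KO and 5142, 4598 and 6195 in WT. Its log2 difference was -0.51 (-1.43 to 0.41, limma adjusted p = 0.530), and -1.00 without KO replicate 3, again short of the threshold.

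Slc25a15 (chromosome 8, ENSMUSG00000031482), the ornithine carrier, had the largest difference of the 10. It had 5244, 6623 and 11768 in KO and 2743, 4112 and 5256 in WT. The groups overlapped by a margin of a few units, since KO replicate 1 lay just under WT replicate 3. The means were 7878 ± 3438 in KO and 4037 ± 1258 in WT (SD, n = 3 each), a log2 difference of 0.93 (0.12 to 1.74, limma unadjusted p = 0.029, adjusted p = 0.194). The difference was positive whichever library was left out, between 0.60 and 1.18, and passed the threshold in none of those fits. Slc25a13 (chromosome 6, ENSMUSG00000015112), the aspartate carrier, had 2713, 3685 and 4625 in KO and 2485, 3500 and 5192 in WT, with a log2 difference of 0.011 (-0.71 to 0.73, limma adjusted p = 0.992).

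Glul (chromosome 1, ENSMUSG00000026473), glutamine synthetase, had 9878, 9311 and 11257 in KO and 11677, 10293 and 11217 in WT. The ranges overlapped and the libraries lay close together, with a log2 difference of -0.13 (-0.56 to 0.30, limma adjusted p = 0.765). The intervals were wide for most of the 10. For Cps1 the interval reached from -0.29 to 0.93 on the log2 scale, and for Otc from -0.94 to 0.89, so these libraries do not show that the genes were alike in KO and WT.

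**Figure D1:**
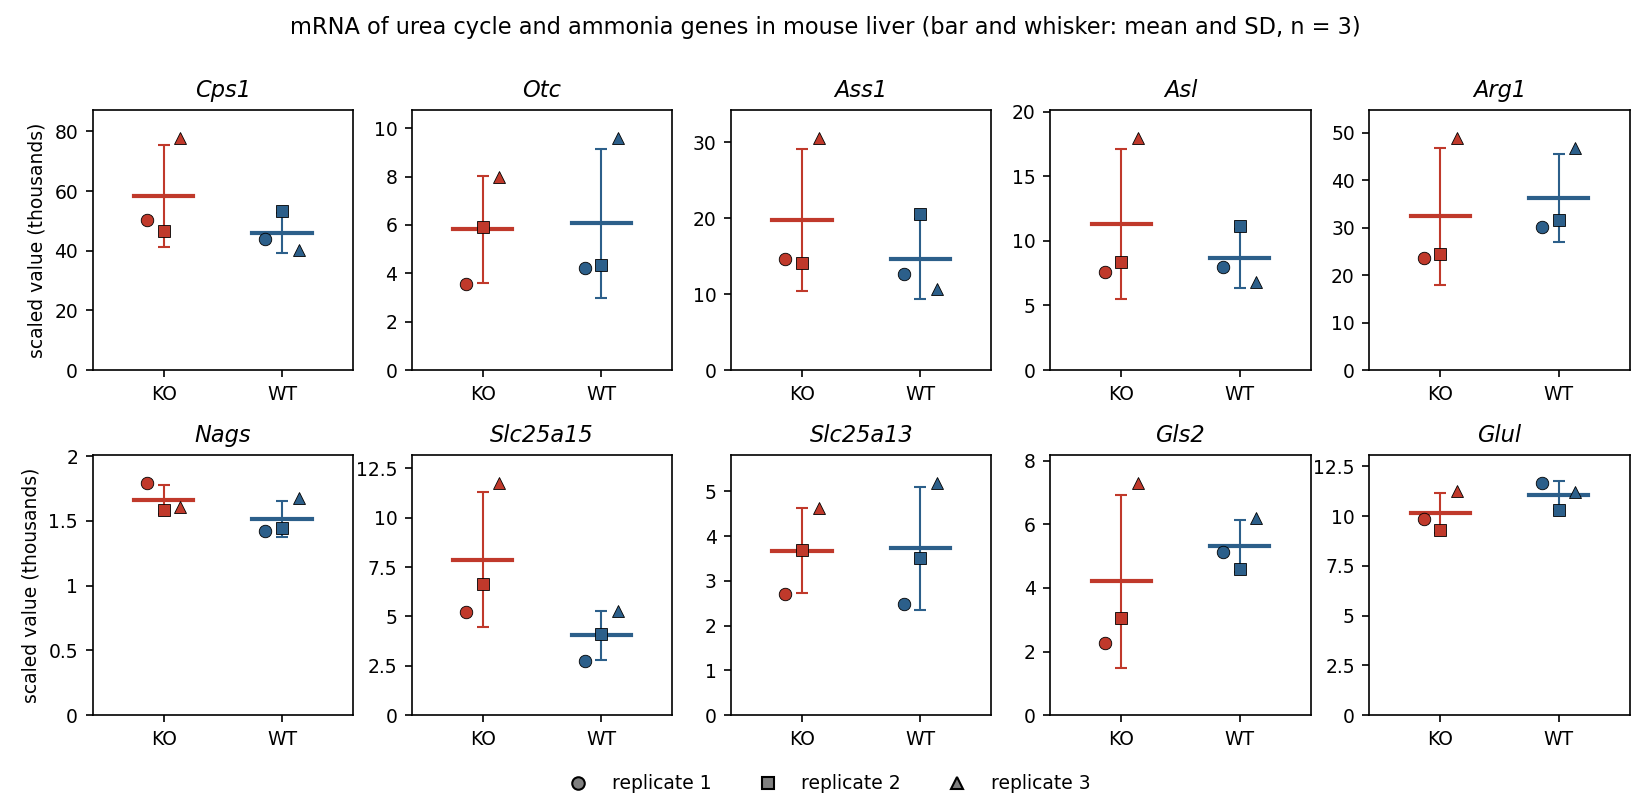
Scaled mRNA values (linear axis from 0 in units of 1000, a separate scale for each gene) of the 10 genes in 3 KO and 3 WT libraries, with the mean as a bar and the SD as a whisker. KO replicate 3 (triangle, red) is the highest KO library for 9 of the 10 genes, and the groups overlap for every gene, barely so for Slc25a15.

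The spread within KO had a common shape. KO replicate 3 was the highest KO library for 9 of the 10 genes, Nags being the exception, and the highest of all 6 libraries for Cps1, Ass1, Asl, Arg1, Slc25a15 and Gls2. WT replicate 3, the library that stood apart over all genes, was the highest WT library for 6 of the 10 and the lowest for Cps1, Ass1 and Asl. The 10 genes summed to 0.672%, 0.673% and 1.09% of all scaled values in KO replicates 1 to 3, and to 0.610%, 0.707% and 0.557% in WT. Without KO replicate 3 the log2 difference was 0.088 for Cps1, 0.028 for Ass1 and -0.088 for Asl. Fewer cells of a type and less RNA per cell cannot be told apart in these bulk samples.

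Ass1 and Asl, which catalyse consecutive steps from citrulline to arginine, had the most similar profiles of any pair of the 10 over the 6 libraries. Their centred log2 profiles differed by a root mean square distance of 0.107, and each was the nearest gene to the other among 10453 genes with a mean scaled value of at least 100. Otc and Slc25a13 differed by 0.211, and Cps1 differed by 0.202 from Asl and by 0.218 from Ass1. The pair farthest apart was Gls2 and Slc25a15, at 0.775. Outside the 10, the nearest profiles over the same 6 libraries were those of Mon1b for Cps1 (0.101), Klf9 for Otc (0.0576), Herpud1 for Arg1 (0.112) and Nr1h3 for Nags (0.0335). They were those of Ldlrad3 for Slc25a15 (0.115), Mib1 for Slc25a13 (0.0403), Mup20 for Gls2 (0.127) and Aldh8a1 for Glul (0.0347). The runners-up were Fndc4, Qk, Itpr1, Mboat7, Cyp39a1, Ndufaf2, Pptc7 and Dffa in the same order, with St3gal5 for Ass1 and Etnk2 for Asl. Genes with a flat profile, such as Nags and Glul, have many near neighbours by this measure.

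Levels between genes were compared as scaled value per kilobase of merged exon. Arg1 was the highest in both groups, at 14527 ± 6452 per kilobase in KO and 16228 ± 4149 in WT (SD, n = 3 each). Cps1 followed with 10492 ± 3079 in KO and 8257 ± 1200 in WT, and Ass1 with 8180 ± 3893 in KO and 6056 ± 2163 in WT. Glul was at 3054 ± 301 per kilobase in KO and 3329 ± 212 in WT. It lay above Asl in KO replicates 1 and 2, below it in KO replicate 3, and above it in every WT library. Nags was the lowest, at 586 ± 40.1 per kilobase in KO and 534 ± 49.3 in WT. Along the order, 7 of 9 neighbouring pairs overlapped between libraries in KO, the exceptions being Ass1 above Glul and Slc25a13 above Nags. In WT, 6 of 9 overlapped, the exceptions being Arg1 above Cps1, Ass1 above Glul and Glul above Asl. Slc25a15 had mean levels of 1400 per kilobase in KO and 717 in WT, which placed it sixth in KO and ninth in WT.

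The second comparison asked how newly made RNA of the same genes differed. With 1 library for each genotype and method there is no test, and a gene was counted where its ratio passed 1.5-fold. Ratios are log2 of KO over WT of RPKM plus 0.5, centred on the median of 13212 genes, and the intervals in parentheses cover counting error only, at 95%. In EU RNA, 6 of the 10 genes were more than 1.5-fold lower in KO and none was higher. Among all genes, 29.1% were lower by this rule and 28.6% higher. In Br RNA, 7 of the 10 were lower and 1 was higher, against 16.2% and 17.5% of all genes. Cps1, Asl, Arg1, Nags, Slc25a15 and Gls2 were lower by both methods, which was so for 5.8% of all genes, and none was higher by both, against 7.2% of all genes. The median of the 10 was -1.39 in EU and -0.70 in Br, against 0 for all genes by the centring. The spread over all genes was wide in EU, where the quartiles of the centred ratios were -0.73 and 0.72, and narrower in Br, at -0.39 and 0.41.

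Cps1 had 15491 EU reads in KO and 101047 in WT, from libraries of 5583983 reads in KO and 10833287 in WT. Its centred log2 ratio was -1.68 (-1.70 to -1.65), 3.20-fold lower in KO. In Br it had 2052 reads in KO and 6289 in WT, from libraries of 2317840 and 3156055 reads, a ratio of -1.17 (-1.24 to -1.10), 2.25-fold lower. Cps1 was thus low in KO by both methods, and it alone made up 60.4% of the reads of the 10 genes in the EU library of KO and 71.9% in that of WT. Nags, its activator's enzyme, had 139 EU reads in KO and 772 in WT, a ratio of -1.37 (-1.72 to -1.18). It had 173 Br reads in KO and 408 in WT, a ratio of -0.78 (-1.06 to -0.53), and so lay on the same side as Cps1.

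Otc had 1115 EU reads in KO and 1627 in WT, a ratio of 0.48 (0.37 to 0.59), and 107 Br reads in KO and 197 in WT, a ratio of -0.43 (-0.79 to -0.088). The methods gave Otc opposite directions, and neither ratio passed 1.5-fold. Ass1 had 1265 EU reads in KO and 2425 in WT, a ratio of 0.089 (-0.0097 to 0.19). In Br, Ass1 had 809 reads in KO and 3970 in WT, a ratio of -1.85 (-1.96 to -1.74), 3.60-fold lower in KO. The disagreement between methods was widest for Ass1, which was near the median gene in EU and the lowest of the 10 in Br. Asl had 328 EU reads in KO and 4386 in WT, a ratio of -2.64 (-2.88 to -2.55), 6.22-fold lower and the lowest of the 10 in EU. Its Br reads were 880 in KO and 2726 in WT, a ratio of -1.18 (-1.30 to -1.08), 2.26-fold lower.

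Arg1 had 1498 EU reads in KO and 12265 in WT, a ratio of -2.00 (-2.08 to -1.93), 4.01-fold lower in KO. In Br it had 840 reads in KO and 1761 in WT, a ratio of -0.62 (-0.74 to -0.50), 1.54-fold lower and only just past the 1.5-fold mark. Slc25a15 stood in the same position by that mark, with 196 Br reads in KO and 414 in WT and a ratio of -0.63 (-0.89 to -0.38). Its EU reads were 1187 in KO and 6431 in WT, a ratio of -1.41 (-1.50 to -1.32), 2.65-fold lower. Slc25a13, the other carrier, was near the median gene by both methods. It had 1398 EU reads in KO and 3136 in WT (-0.14, -0.23 to -0.046) and 185 Br reads in KO and 290 in WT (-0.20, -0.48 to 0.068).

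The glutamine enzymes of the opposite ends of the lobule differed in direction. Gls2 had 440 EU reads in KO and 3630 in WT, a ratio of -2.01 (-2.16 to -1.87), 4.02-fold lower in KO. Its Br reads were 144 in KO and 632 in WT, a ratio of -1.68 (-1.96 to -1.43), 3.21-fold lower. Glul had 2779 EU reads in KO and 4756 in WT, a ratio of 0.25 (0.19 to 0.32), under the 1.5-fold mark. In Br it had 944 reads in KO and 632 in WT, a ratio of 1.02 (0.88 to 1.17), 2.03-fold higher, and it was the only one of the 10 higher in KO by that rule.

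**Figure D2:**
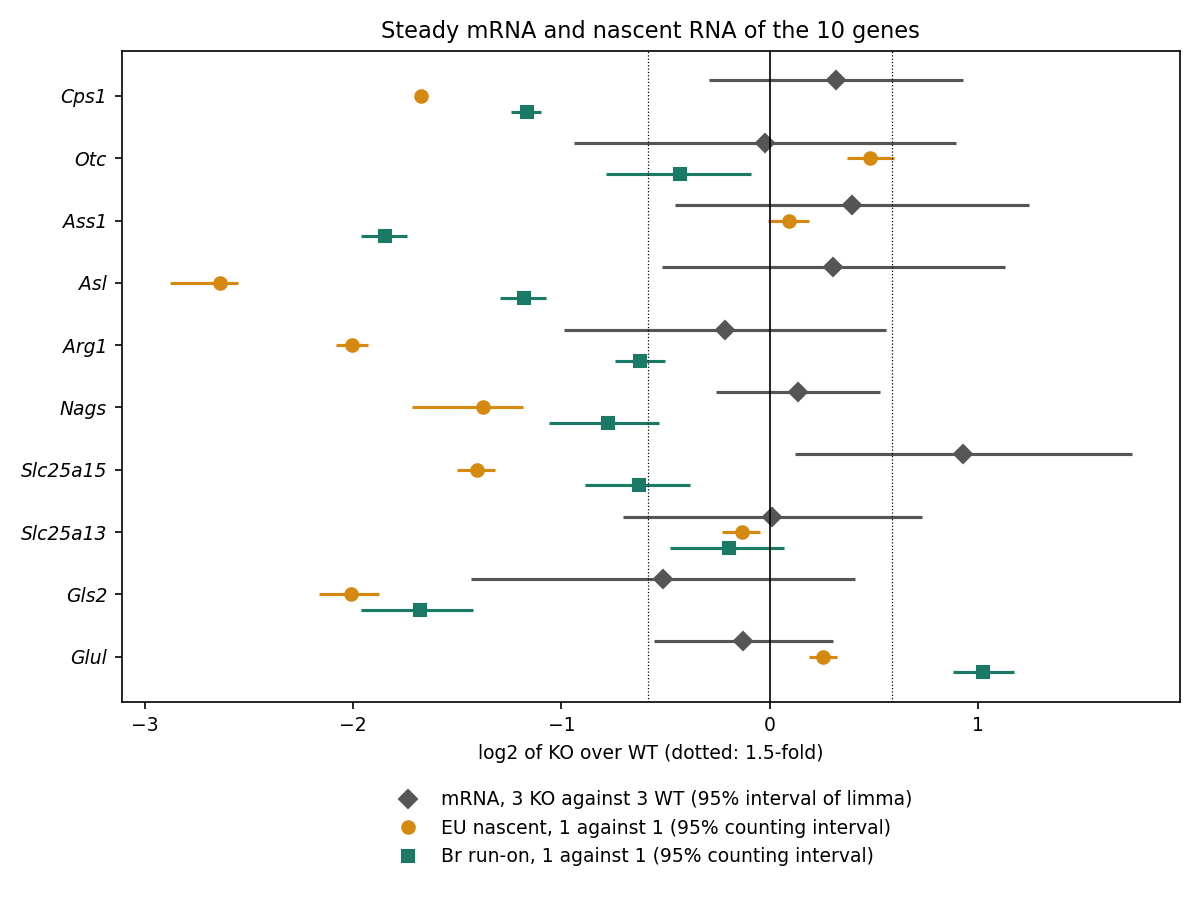
Log2 of KO over WT for each gene in mRNA (diamonds, 3 against 3 libraries, 95% interval of limma), EU RNA (circles) and Br RNA (squares), the last 2 with 1 library per genotype and 95% counting intervals. Dotted lines mark 1.5-fold, and for Cps1, Asl, Arg1, Nags, Slc25a15 and Gls2 both nascent ratios lie left of the left line while the mRNA intervals of all but Slc25a15 include 0.

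As a share of its library, the RNA of the 10 genes made up 0.459% of EU reads in KO (95% exact interval 0.454% to 0.465%) and 1.30% in WT (1.29% to 1.30%). In Br the shares were 0.273% in KO (0.266% to 0.280%) and 0.549% in WT (0.541% to 0.557%). These are shares of reads in single libraries and do not carry the spread between animals. Set beside the 95% interval of the mRNA difference, the EU ratio lay below it for 6 genes and the Br ratio for 6, and both lay below it for 5. The Br ratio of Glul, at 1.02, lay above its mRNA interval of -0.56 to 0.30. Slc25a15, with the highest mRNA difference of the 10 (0.93), had nascent ratios of -1.41 in EU and -0.63 in Br. The mRNA and nascent values come from separate tables with separate scaling, the nascent ones from single libraries, and the gap between them was not tested.

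Markers of other cell types were read in the same tables, and 4 of them were called. Over all genes tested, limma called 2.71%, with 1.35% higher and 1.36% lower. In mRNA the 15 macrophage markers summed to 12268 to 26666 in KO and 8453 to 10008 in WT, with 2 of 15 called higher by limma, Csf1r and Cd14, and a median log2 difference of 1.29. The stellate cell and fibroblast markers summed to 7119 to 8816 in KO and 4342 to 6171 in WT, with 1 of 11 tested called higher, Pdgfrb. Within that list the difference was above 0 for 9 of 11, and Rgs5 (-0.89) and Acta2 (-0.56) lay below 0. The cholangiocyte markers summed to 1484 to 2367 in KO and 853 to 1318 in WT, with 1 of 7 tested called higher, Spp1. Each of these 4 calls was lost when some single library was left out. Endothelial markers summed to 7659 to 8356 in KO and 7053 to 7831 in WT, lymphocyte markers to 175 to 375 in KO and 170 to 274 in WT, neutrophil markers to 94 to 233 in KO and 123 to 126 in WT, and erythroid genes to 13904 to 25474 in KO and 13199 to 19530 in WT, with none called in these 4 lists. No marker with a row was at 0 in all 6 libraries.

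In EU RNA the macrophage markers were 0.0570% of reads in KO and 0.00623% in WT. C1qb, a complement subunit, held 2461 of their 3182 reads in KO and 59 of 675 in WT, and without it the shares were 0.0129% in KO and 0.00569% in WT. By the 1.5-fold rule 8 of the 15 macrophage markers were higher and 4 lower in EU, against 28.6% and 29.1% of all genes. The stellate and fibroblast markers were 0.125% of EU reads in KO and 0.0149% in WT. Col3a1 held 3396 of their 6959 reads in KO and 529 of 1613 in WT. Of these 10 markers, 9 were higher and 1 lower in EU, and 9 were higher and 0 lower in Br. Over all genes, 28.6% were higher and 29.1% lower in EU, and 17.5% and 16.2% in Br. By both methods 8 of the 10 were higher, against 7.2% of all genes. In Br the shares were 0.0271% in KO and 0.0230% in WT for macrophages, and 0.0388% in KO and 0.0209% in WT for stellate cells and fibroblasts. The hepatocyte markers were 3.47% of EU reads in KO and 4.88% in WT, and 1.46% of Br reads in KO and 1.66% in WT. Of the 11 hepatocyte markers, 4 were more than 1.5-fold lower and none higher in EU, against 29.1% and 28.6% of all genes. In Br 3 were lower and 1 higher, against 16.2% and 17.5%. Their medians were -0.14 in EU and 0.15 in Br. The 3 markers lower by both, against 5.8% of all genes, were Tat (-2.11 in EU and -1.70 in Br), Serpina1a (-1.58 and -0.60) and Serpina1c (-1.29 and -0.62). Alb, the albumin gene, was at -0.38 in EU and -0.17 in Br. The part of cell composition in the nascent ratios was not tested.

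**Figure D3:**
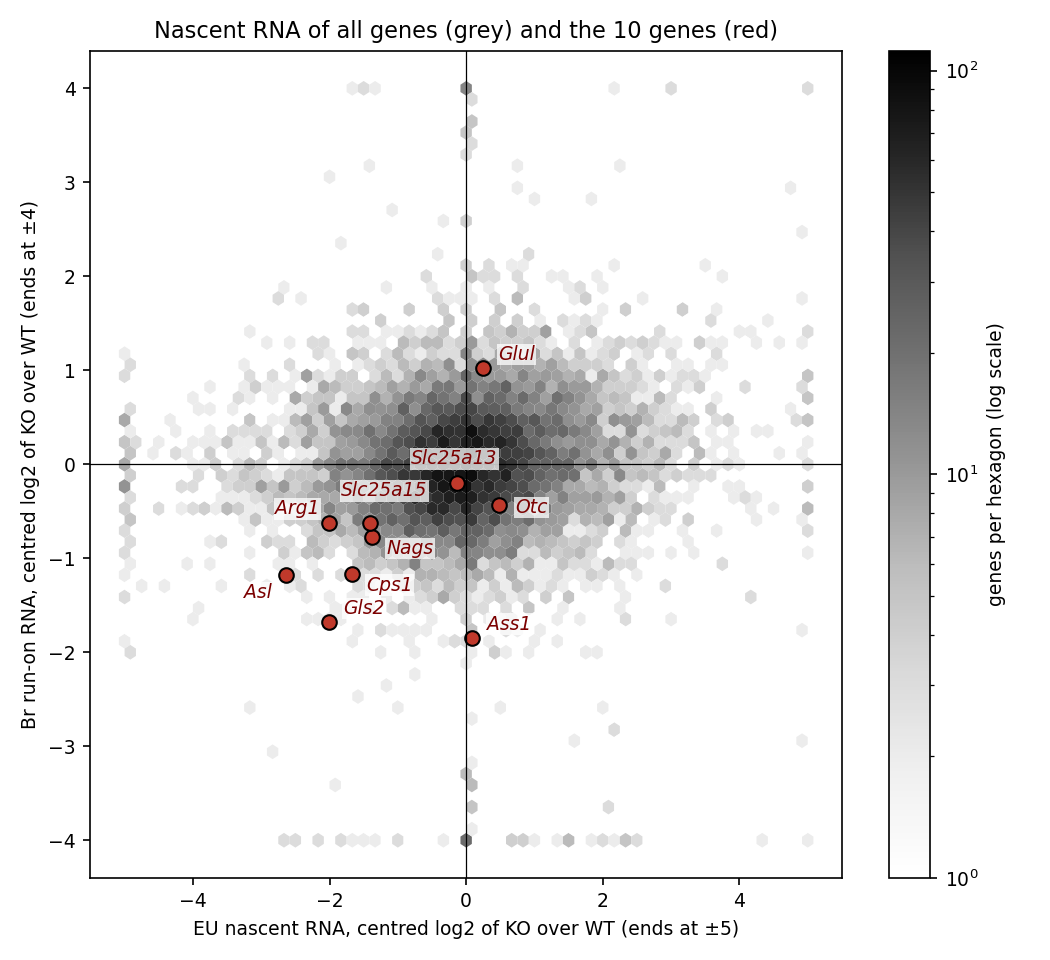
Centred log2 ratio of KO over WT in EU RNA (x axis) and Br RNA (y axis) for 13212 genes, with grey hexagons shaded by the number of genes on a log scale and the 10 genes as red points. Values beyond ±5 in EU and ±4 in Br are drawn at the edge, and 6 of the 10 genes lie at the lower left away from the dense centre, with Ass1 low in Br alone and Glul high in Br.

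The third comparison set the 10 genes beside 56 other genes of ammonia, urea and nitrogen metabolism, such as transaminases, amino acid carriers and amino acid catabolic enzymes. In mRNA, limma called 0 of the 50 tested, against 2.71% of all genes tested. The median log2 difference was -0.085, and 15 of the 50 had an unadjusted p under 0.05, against 20% of all genes tested. DESeq2 called 10 of the 50, against 10.8% of all genes. The neighbours with the smallest p were Slc25a22, a mitochondrial glutamate carrier, and Uox, the urate oxidase of the mouse liver. Slc25a22 had 9961, 8659 and 11912 in KO and 5325, 4993 and 6212 in WT, with no overlap and a log2 difference of 0.88 (limma adjusted p = 0.063). Uox had 15920, 20030 and 31013 in KO and 42893, 49229 and 83169 in WT, with no overlap and a log2 difference of -1.38 (limma adjusted p = 0.073). Without WT replicate 3 limma called 4 neighbours and 1606 genes in all, and without KO replicate 3 it called 1 neighbour and 286 genes in all.

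In nascent RNA, 31 of 52 neighbours were more than 1.5-fold lower in KO in EU and 10 were higher, and in Br 22 were lower and 3 higher. By both methods 17 were lower and 1 was higher, Slc7a1, on 25 EU reads in KO and 13 in WT. Over all genes, 29.1% were lower and 28.6% higher in EU, 16.2% and 17.5% in Br, and 5.8% and 7.2% by both. The medians of the neighbours were -0.77 in EU and -0.48 in Br, between those of the 10 genes and that of all genes. Uox, the lower of the neighbours with the smallest mRNA p, was also low in nascent RNA, at -1.30 in EU and -1.26 in Br. Slc25a22, the higher one, was at 1.27 in EU and -0.25 in Br. The neighbours named next were chosen after their nascent values were seen. Got1, the cytosolic aspartate transaminase, had 117 EU reads in KO and 2291 in WT (-3.08), and 110 Br reads in KO and 545 in WT (-1.79). Its mRNA ran the other way, at 4024, 3545 and 7852 in KO and 1815, 1956 and 2886 in WT, with no overlap and a log2 difference of 1.15 (limma adjusted p = 0.108). Hal, which starts histidine breakdown, had 477 EU reads in KO and 4881 in WT (-2.29), and 474 Br reads in KO and 1608 in WT (-1.30). Slc7a2, an arginine and ornithine carrier of the plasma membrane, had 14916 EU reads in KO and 54601 in WT (-0.84), and 687 Br reads in KO and 3318 in WT (-1.82). The mRNA log2 difference was -0.24 for Hal and 0.24 for Slc7a2, with overlapping groups in both.

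Of other genes that supply the cycle, some were low in KO by both methods and Glud1 in EU alone. Slc38a3, a glutamine carrier of hepatocytes, had 3121 EU reads in KO and 11923 in WT (-0.90), and 1173 Br reads in KO and 3501 in WT (-1.13). Glud1, glutamate dehydrogenase, was lower past 1.5-fold in EU only, at -1.11, against -0.23 in Br. Car5a, the mitochondrial carbonic anhydrase that supplies bicarbonate to Cps1, was lower by both methods, at -0.74 in EU and -0.96 in Br. In mRNA, Slc38a3 was at -0.73 and Car5a at -1.05, both lower in KO with no overlap. Glud1 was at -0.19 in mRNA, with overlapping groups. Limma adjusted p was 0.105 for Slc38a3, 0.138 for Car5a and 0.669 for Glud1. Over all genes tested, 12.8% were lower in KO with no overlap.

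Of 20 transcription factors, receptors and coregulators with a known part in the control of urea cycle genes, limma called 0 in mRNA. Over all genes tested, 2.71% were called. The median log2 difference of the 20 was -0.16. The smallest p belonged to Insr, the insulin receptor, at -0.81, and Foxo3, a forkhead factor, at -0.53, with limma adjusted p of 0.098 and 0.156. In nascent RNA, 8 were more than 1.5-fold lower in EU and 3 in Br, against 29.1% and 16.2% of all genes. None was higher by either method, against 28.6% of all genes in EU and 17.5% in Br. Klf15 and Foxo1 were lower by both, which was so for 5.8% of all genes. Hnf4a, a nuclear receptor that maintains hepatocyte expression, had 4750 EU reads in KO and 22986 in WT (-1.24), and 1356 Br reads in KO and 2467 in WT (-0.41). Its mRNA was 11342, 13356 and 16102 in KO and 10196, 11238 and 19905 in WT, with overlapping groups.

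Other zonated genes were read in the same way. Of 14 periportal genes, limma called 1 in mRNA, against 2.71% of all genes tested. It was Pigr, the carrier of immunoglobulin A into bile, which was lower in KO. Pigr had 10872, 15557 and 20885 in KO and 41186, 44628 and 38815 in WT, with no overlap and a log2 difference of -1.45 (limma adjusted p = 0.0354). That call held without KO replicate 3 and without WT replicate 3. It was lost when any of the other 4 libraries was left out, with limma adjusted p up to 0.169. The nascent methods differed for Pigr. It had 1814 EU reads in KO and 3727 in WT (-0.010), and 285 Br reads in KO and 955 in WT (-1.29). In EU 6 periportal genes were lower and 2 higher, with a median of -0.41, and in Br 5 were lower and 3 higher, with a median of -0.30. By both methods Tat (-2.11 in EU and -1.70 in Br) and Cyp2f2 (-0.89 and -0.85) were lower and Sox9 (1.39 and 1.40) was higher. Sox9 had few EU reads (55 in KO and 21 in WT). Its EU counting interval of 1.67 to 3.22, computed without the added 0.5, lay above the ratio. In mRNA Sox9 was at 0.097. Tat is also in the hepatocyte list and Sox9 in the cholangiocyte list. Over all genes, 29.1% were lower and 28.6% higher in EU, and 16.2% lower and 17.5% higher in Br. Of 13 pericentral genes, which lie on the side of Glul, 3 were lower and 6 higher in EU, with a median of 0.46, and 2 lower and 5 higher in Br, with a median of 0.41. Those higher by both methods were Lgr5 (0.90 in EU and 1.88 in Br), Tbx3 (0.71 and 0.74) and Nkd1 (1.40 and 1.05), on few reads for Nkd1 (57 in KO and 33 in WT in EU). Cyp27a1 was lower by both (-1.41 in EU and -0.76 in Br). Lhpp (2.17 and -0.82) and Slc13a3 (-2.03 and 0.75) passed the 1.5-fold mark in opposite directions by method. By both methods, 5.8% of all genes were lower and 7.2% higher. None of the 14 pericentral genes tested in mRNA was called by limma. The smallest p there belonged to Cyp27a1, a sterol hydroxylase, at -0.80, and Lhpp, a phosphatase, at 1.01, with limma adjusted p of 0.068 and 0.071.

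**Figure D4:**
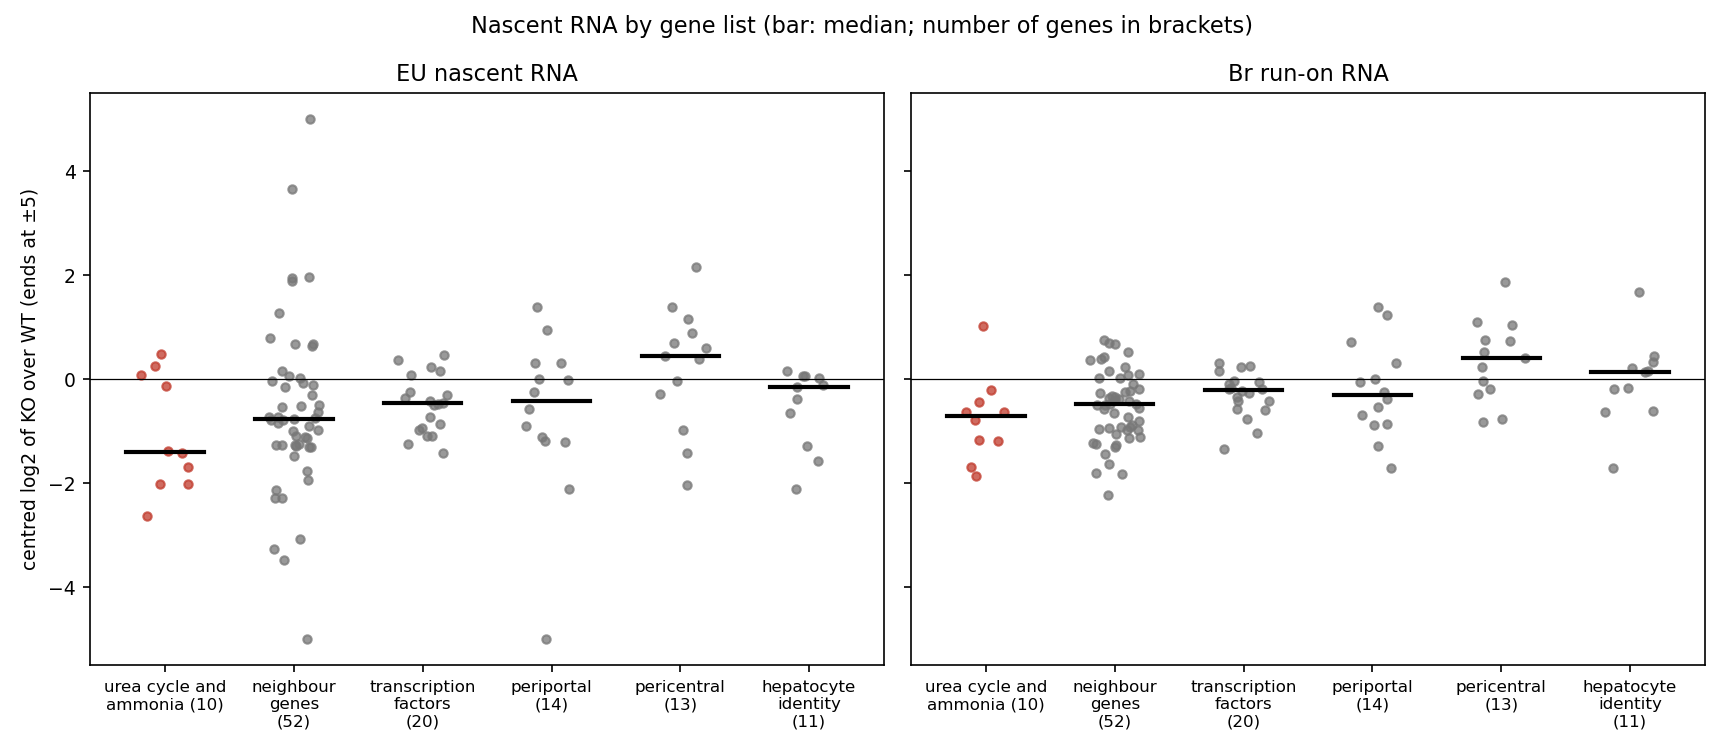
Centred log2 ratio of KO over WT for each gene of 6 lists (points) in EU RNA (left) and Br RNA (right), with the median as a bar and the number of genes in brackets. The bar of the urea cycle and ammonia genes is at -1.39 in EU and -0.70 in Br, and the bar of the pericentral genes is above 0 in both.

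Some values rest on counting choices that the sources used here do not give. In the GENCODE M21 annotation, of a later genome build than that of the files, exons of Gls2 overlap those of Spryd4 on the opposite strand by 97 bases, those of Nags overlap Gm11586 by 443 bases and those of Glul overlap Teddm2 by 116 bases, and also Mir8114 on the same strand. Whether strand was used in counting is not given. Spryd4 had scaled mRNA values of 886 to 1100 in KO and 697 to 1150 in WT, and Gm11586 had at most 3 in any library.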

How the data were processed

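RNA of mouse liver was measured in 6 mRNA and 4 nascent libraries, with groups taken from their titles. The submitters' processing notes list the build mm9 and, with no roles, the tools Bowtie2, TopHat2, DESeq, Cufflinks, SICER and MACS2. A counter, an annotation and a strand setting are not given in the sources used here. As deposited, mRNA values are a score, the authors' DESeq-scaled values rounded to whole numbers, judged from the values and those notes. The authors deposited nascent counts per gene and a table of RPKM, and since every deposited Br count was even, Br counts were divided by 2. Gene names came from GENCODE M21, which named 32860 of 37583 identifiers. RPKM rows matched counts for 18690 of 19583 genes.

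The mRNA comparison was made in R 4.3.3 by limma 3.58.1, with the trend and robust options of eBayes, after adding 1 to the scaled value and taking log2, for genes of at least 10 in at least 3 libraries, two-sided, with Benjamini-Hochberg adjustment and a threshold of 0.05. The script was tested on simulated data. Nascent ratios used RPKM with 0.5 added, for genes whose mean RPKM was at least 1, with Clopper-Pearson intervals on reads. Such genes had a median of 256 reads in EU and of 147 in Br, KO and WT summed, and the EU median before centring was -0.07. Intervals cover counting error only and are computed without the 0.5, which pulls the ratios of low genes towards 0. The naming rule took the 10 members, the nearest 2 profiles of each, and of each list the called genes or, with none called, the 2 of smallest p. Other list genes that the text names were chosen after their values were seen. The members and lists were chosen with earlier results of these data known. Alternatives were edgeR 4.0.16 and DESeq2 1.42.0 on reads re-estimated from the rounding step (approximate), other scalings, filters, pseudocounts, array weights, a replicate block and each library left out.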

Additional observations from a re-analysis of the deposited data

How the results depend on the processing

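Limma called 455 genes over the whole table. DESeq2 called 1782, array weights 8410 and the replicate block 1014, and leaving out each library in turn gave 28 to 1606. None of the 10 urea cycle and ammonia genes was called in any fit that left out a library (0 to 0). Array weights and the replicate block each called 1 of the 10, Slc25a15, with a log2 difference of 0.82 and a limma adjusted p of 0.00433 under array weights and of 0.93 and 0.0388 under the block. Its adjusted p lay between 0.00433 and 0.425 over all alternatives. Deviations of same-numbered libraries from their group mean correlated at 0.409, -0.242 and 0.198, and not every library correlated best with its own number. KO replicate 2 correlated best with WT replicate 3 (0.270). With 3 libraries per group, whose deviations sum to 0, these correlations cannot settle whether replicate numbers pair the samples. Of the 56 neighbours limma called 0; DESeq2 called 10, no filter 3, array weights 26, the block 5, and leaving out each library 0 to 4.

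Of 160 mRNA differences of the 10 genes under the alternatives, 145 kept their direction and side of the threshold and 13 turned direction, in Cps1, Otc, Ass1, Asl and Slc25a13. Under array weights Cps1 was at -0.055, Otc at 0.41, Ass1 at -0.30 and Asl at -0.22. Otc ranged from -0.29 to 0.36, Asl from -0.088 to 0.54 and Slc25a13 from -0.25 to 0.28 when a library was left out, and Slc25a13 was at -0.018 under edgeR with RLE scaling and at -0.018 under DESeq2. The cause was not tested. Of 100 nascent ratios of the 10 genes under other pseudocounts, centring, units and filters, none turned direction, 4 moved beyond their counting interval, and the counts past 1.5-fold stayed within 1.5 times. By the length of the longest coding transcript, 6 of the 10 kept their place in the order of levels in KO. Cps1 and Ass1 changed places there, as did Glul and Asl, with KO means per kilobase of 3635 for Glul and 4691 for Asl. By that length Asl also lay above Glul in WT replicate 2 (4631 and 3687). Nascent values rest on 1 library per genotype and method.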

Other observations

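Further cell type markers that passed the limma test or had the smallest p in their list were as follows. Csf1r, the receptor that sustains macrophages, had scaled values of 1844, 2594 and 1203 in KO and 429, 727 and 595 in WT, a log2 difference of 1.65 (limma adjusted p = 0.0381). Spp1, osteopontin, had 1569, 1387 and 803 in KO and 263, 301 and 470 in WT, a log2 difference of 1.85 (limma adjusted p = 0.0285). Pdgfrb, a growth factor receptor of stellate cells, had 399, 309 and 321 in KO and 147, 118 and 134 in WT, a log2 difference of 1.36 (limma adjusted p = 0.0209). Cd14, a coreceptor for bacterial lipopolysaccharide, had 246, 152 and 122 in KO and 30, 47 and 61 in WT, a log2 difference of 1.88 (limma adjusted p = 0.0448). The groups of all 4 genes did not overlap, and all 4 calls held without WT replicate 3. Without KO replicate 3 the calls of Csf1r and Spp1 held, and leaving out any other library ended all 4 calls, with limma adjusted p up to 0.188. KO replicate 3, the library with the highest mRNA of 9 of the 10 urea cycle and ammonia genes among KO libraries, had the lowest Csf1r, Spp1 and Cd14 of the KO libraries.

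Of the lists with no call, Ttr was at a log2 difference of 0.67 and Serpina1a at -1.10 among hepatocyte genes, and Cdh5 at 1.00 and Vwf at 0.78 among endothelial genes, with limma adjusted p of 0.151, 0.290, 0.070 and 0.141. Cd3d and Cd79b among lymphocyte genes, and Ngp and S100a8 among neutrophil genes, had at most 45 scaled units in any library. Hba-a1 and Hba-a2, the near-identical alpha globin genes, were at 0.76 and 0.23, with limma adjusted p of 0.247 and 0.720. In EU RNA Hba-a2 had 4629 reads in KO and 184 in WT (5.52), and in Br 77 in KO and 63 in WT (0.68). Alas2, also of the erythroid list, ran the other way. It had 2 EU reads in KO and 342 in WT (-5.22), and 43 Br reads in KO and 132 in WT (-1.15).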
